A study of Homo sapiens with 5 samples.

Results

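A set of 9 genes of the p53 response and of the control of cell division were followed through the RNA sequencing libraries of HT1080 cells, a human fibrosarcoma line. The set held MDM2, CDKN1A, GADD45A, GADD45B, BTG1, BTG2, PPM1D, CCNG1 and CCND1, taken by gene symbol, and they made up 9 of the 27189 genes listed for every library. The set was chosen by its measured levels in these same libraries, the read counts and TPM of the 5 conditions, so those levels are a description and no test was applied to them. In all 5 groups, HT1080 cells of passages 15 to 18 were embedded in type I collagen at 2 mg/ml and kept there for 24 h. The low-density group (LD) held 10 cells/mm3 and received no cytokine. The IL-6 and IL-8 groups held the same density with 1 recombinant cytokine each. The RM group had both cytokines at that density, in a ratio of 5:2, and the high-density group (HD) held 50 cells/mm3 with no cytokine added. The comparisons ask whether the cytokines, singly or together, or crowding are accompanied by other levels of these genes. There was 1 library per group, so a difference between groups has no replicate check, and the 4 comparisons with LD share the LD library.

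The transcription factor p53 accumulates after DNA damage and other stresses and switches on genes that halt the cell cycle, repair DNA or trigger cell death. MDM2, a ubiquitin ligase that marks p53 for destruction, and PPM1D, a phosphatase that removes activating phosphates from p53 and its kinases, are themselves switched on by p53 and close negative feedback loops. CDKN1A encodes p21, an inhibitor of cyclin-dependent kinases, and GADD45A and GADD45B encode small stress proteins that bind PCNA, p21 and the kinase MAP3K4. BTG1 and BTG2 are antiproliferative proteins that recruit the CCR4-NOT deadenylase to messenger RNA, CCNG1 encodes cyclin G1, a partner of protein phosphatase 2A, and CCND1 encodes cyclin D1, which with CDK4 or CDK6 drives cells through G1. Several of these genes also answer to cytokine and growth factor signals without p53.

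Promoter sequences are shown for GADD45B, BTG1 and BTG2, the genes of the GADD45 and BTG families that had a RefSeq promoter window, because the cytokine comparisons turn on these families. Each window is the GRCh38.p14 sequence of 300 bases from 250 bases before to 50 bases after the annotated start, printed 5′ to 3′ on the gene's strand, and 7 of the 9 genes were matched. The windows give sequence context only, because no measurement here was placed by coordinate. GADD45B lies on the plus strand (chr19:2475877-2476176), BTG1 on the minus strand (chr12:92145797-92146096) and BTG2 on the plus strand (chr1:203305269-203305568). Capitals mark matches to 3 short motifs searched on both strands. One is TATAAA, the letters of the TATA box found close to the start of many genes. Another is CCAAT, the letters bound by the factor NF-Y. The last is GGGCGG, the letters bound by Sp1 and its relatives.
GADD45B: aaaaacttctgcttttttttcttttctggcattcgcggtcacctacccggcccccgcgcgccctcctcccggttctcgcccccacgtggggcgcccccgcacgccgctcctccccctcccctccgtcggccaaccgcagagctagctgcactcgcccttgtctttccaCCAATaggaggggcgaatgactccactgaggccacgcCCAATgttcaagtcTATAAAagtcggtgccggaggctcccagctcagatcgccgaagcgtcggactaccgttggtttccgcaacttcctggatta
BTG1: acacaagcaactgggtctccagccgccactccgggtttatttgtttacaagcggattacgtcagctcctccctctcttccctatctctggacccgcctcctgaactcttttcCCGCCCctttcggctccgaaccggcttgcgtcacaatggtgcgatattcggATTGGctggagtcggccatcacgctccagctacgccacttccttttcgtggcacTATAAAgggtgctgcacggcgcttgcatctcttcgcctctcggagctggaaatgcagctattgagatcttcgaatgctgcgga
BTG2: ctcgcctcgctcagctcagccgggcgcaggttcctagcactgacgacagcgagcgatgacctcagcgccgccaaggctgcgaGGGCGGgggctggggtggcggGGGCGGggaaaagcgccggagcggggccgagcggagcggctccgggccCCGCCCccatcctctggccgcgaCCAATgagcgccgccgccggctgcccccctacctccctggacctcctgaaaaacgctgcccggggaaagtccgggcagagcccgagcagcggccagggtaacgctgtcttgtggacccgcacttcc
The BTG1 and GADD45B windows each held a TATAAA, at 33 and 31 bases before the start, which 11.5% of the 35116 windows in the table held. The BTG2 window had no TATAAA and held 3 copies of GGGCGG. No match of one motif overlapped a match of another in these 3 sequences. Of the 7 genes with a window, 6 held CCAAT (all but CDKN1A) and 6 held GGGCGG (all but GADD45B), against 34.6% and 45.0% of all windows. A gene was counted if any of its windows held the motif, and MDM2 and CCNG1 had more than 1. The percentages are per window, so the 2 are not like for like. TGACGTCA was present in PPM1D alone among the 7 and in 1.85% of windows. TGACTCA was present in MDM2 alone, in some of its windows but not all, and in 4.95% of windows. An exact match to the 10-base p53 consensus was in no window of the 7 genes and in 6.63% of all windows. The search allowed no mismatch, so it cannot show that a p53 site is absent from this stretch. The base composition of the windows ranged widely, with a G and C content of 73.3% for BTG2, 61.7% for GADD45B and 56.0% for BTG1 beside a median of 58.7% over all windows.

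The libraries held between 926376 reads (HD) and 7118545 reads (LD). A single ribosomal gene, RNA5-8S5, took 76.9% to 79.6% of the reads in the 4 low-density libraries and 51.5% in HD, which left between 449661 and 1645539 reads for all other genes. Below, TPM is the deposited value (transcript abundance corrected for transcript length) rescaled to a total of 1000000 per library, and read share is reads per 1000000 reads outside RNA5-8S5. Intervals are 95% exact counting intervals, which cover counting error only, since reads of amplified cDNA are not independent molecules. The floor of 3 reads corresponds to a read share of 1.82 to 2.72 in the low-density libraries and of 6.67 in HD. HD stood apart: 20113 genes had a read there, against 13469 to 15080 elsewhere, and the 10 housekeeping genes summed to 4860 TPM, against 16100 to 16640. Of the 6 mesenchymal markers 5 or 6 had reads in every library (ENG was at 0 with IL-6 and HD), with a summed level of 2529 to 4396 TPM at low density and 660.2 in HD. The 4 epithelial markers summed to at most 0.92 TPM at low density and 40.9 in HD, where KRT5 was at 0. The 4 leukocyte markers summed to 1.12 to 4.27 and 189.1 TPM, CD79A being at 0 throughout, and the 3 endothelial markers to 0.48 to 1.08 and 53.8 TPM, VWF being at 0 in all 4 low-density libraries. The part of these features in the HD results was not tested, and in bulk RNA a smaller number of cells of a type and less RNA per cell cannot be told apart.

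CCND1 was by far the most abundant of the 9 messengers. Its level was 2765 TPM in LD, 2333 with IL-6, 2600 with IL-8, 3012 in RM and 559.2 in HD, and it made up 74.5% to 81.4% of the summed TPM of the 9 genes. The whole group summed to 3466, 3133, 3360, 3699 and 739.3 TPM in the same order of libraries. In LD, CDKN1A came next at 400.0 TPM, followed by GADD45A at 154.4, GADD45B at 98.5 and BTG1 at 20.1, and the counting intervals of these neighbours did not overlap. Those of MDM2 (11.4 TPM) and CCNG1 (9.88 TPM) did overlap, as did those of BTG2 (3.45 TPM) and PPM1D (2.81 TPM). CCND1, CDKN1A, GADD45A and GADD45B headed the order with IL-6 and IL-8 too. In RM, GADD45A at 319.0 TPM (interval 293.0 to 346.0) stood level with CDKN1A at 294.0 TPM (274.0 to 315.0), a pair whose intervals overlapped in that library and in no other low-density library. In HD the order after CCND1 was CCNG1 at 54.7 TPM, CDKN1A at 42.9, MDM2 at 30.4, PPM1D at 29.9, GADD45B at 16.0 and BTG1 at 6.26, and each of these overlapped its neighbour. GADD45A and BTG2 had 0 reads in HD.

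**Figure D1:**
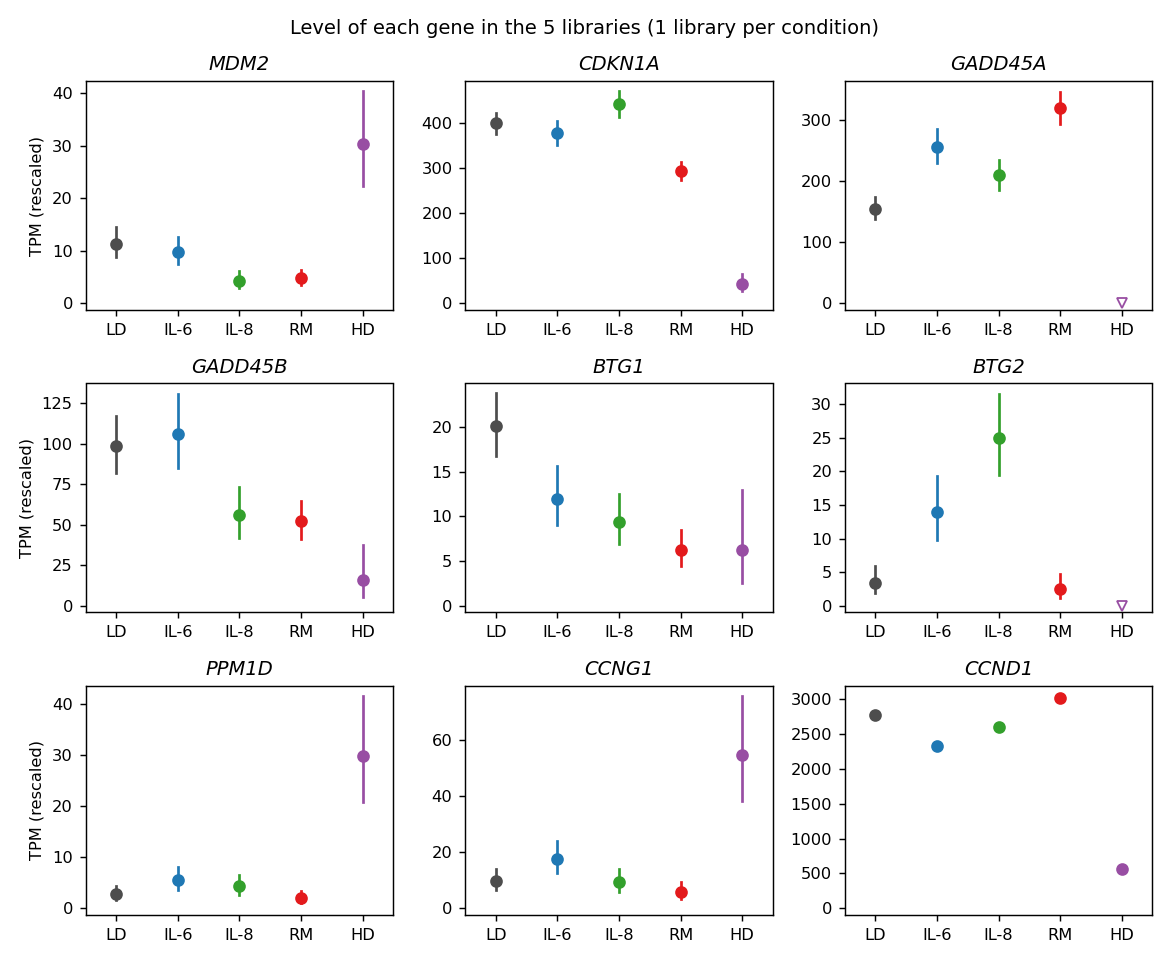
Level of each gene in rescaled TPM (linear vertical axes, each with its own scale) in each of the 5 libraries, with 95% counting intervals as bars and open triangles for 0 reads. GADD45A is highest in RM at 319.0 TPM, BTG2 with IL-8 at 24.9 TPM, and MDM2, PPM1D and CCNG1 are highest in HD.

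The GADD45 genes took different courses across the cytokine libraries. GADD45A had 285 reads in LD, 325 with IL-6, 286 with IL-8, 561 in RM and 0 in HD, which corresponds to read shares of 173.2, 295.2, 255.2, 391.1 and 0. All 3 cytokine libraries were above LD, and RM was above both single cytokines. Relative to LD the read share of GADD45A was 1.70-fold with IL-6 (interval 1.45 to 2.01), 1.47-fold with IL-8 (1.25 to 1.74) and 2.26-fold in RM (1.95 to 2.61). RM exceeded IL-6 by 1.32-fold (1.15 to 1.52) and IL-8 by 1.53-fold (1.33 to 1.77). On the log2(TPM + 1) scale GADD45A differed from LD by 0.72 with IL-6, 0.43 with IL-8 and 1.04 in RM. The RM difference was at least 1 under each of the 8 scalings and pseudocounts applied, between 1.02 and 1.75. GADD45A was the only member at least 1 log2 unit higher in RM than in LD.

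GADD45B, a close relative known to respond to inflammatory cytokines, had 130 reads in LD, 87 with IL-6, 51 with IL-8, 78 in RM and 5 in HD, or 98.5, 106.3, 56.0, 52.1 and 16.0 TPM. LD and IL-6 were alike in read share, at 79.0 in both, with a ratio of 1.00 (interval 0.754 to 1.32). With IL-8 the read share was 0.576 times that of LD (0.408 to 0.802) and in RM 0.688 times (0.513 to 0.918). Thus GADD45B stood lower than LD in the same RM library in which GADD45A stood highest. Its log2 differences of -0.80 and -0.91 did not reach 1 unit, and the RM difference changed sign, to 0.06, with median-ratio size factors. Genes with a mean of at least 10 reads had a median RM difference of -0.49. Relative to that median, GADD45B lay at -0.41 and GADD45A at 1.54.

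BTG1 was lower than LD in all 3 cytokine libraries. It had 133 reads in LD, 55 with IL-6, 47 with IL-8, 41 in RM and 7 in HD, or 20.1, 12, 9.38, 6.25 and 6.26 TPM. The ratio of its read share to LD was 0.618 with IL-6 (interval 0.443 to 0.852), 0.519 with IL-8 (0.364 to 0.729) and 0.354 in RM (0.243 to 0.505). The lowest cytokine value was thus in RM, at a share 0.572 times that of IL-6 (0.372 to 0.873), whereas the ratio of RM to IL-8, 0.682, had an interval that included 1 (0.437 to 1.06). The log2 difference in RM was -1.54, between -1.67 and -0.83 over the 8 settings, and reached 1 unit in 6 of them. With IL-8 it was -1.02, and 4 of the 8 settings reached 1 unit.

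BTG2, an immediate early gene that p53 and growth signals both switch on, was the member that separated the single cytokines from their combination. It had 13 reads in LD, 36 with IL-6, 70 with IL-8, 9 in RM and 0 in HD, or 3.45, 13.9, 24.9, 2.47 and 0 TPM. IL-6 and IL-8 stood above LD, and RM did not. The read share was 4.14-fold that of LD with IL-6 (interval 2.14 to 8.50) and 7.91-fold with IL-8 (4.34 to 15.6), while the ratio of RM to LD was 0.794 (0.300 to 2.01). Set directly against RM, IL-6 was 5.21-fold higher (2.46 to 12.3) and IL-8 was 9.96-fold higher (4.96 to 22.7). The log2 differences from LD of 1.74 with IL-6 and 2.54 with IL-8 were at least 1 in all 8 settings, with the lowest at 1.16 and 1.83. RM minus IL-6 (-2.10) and RM minus IL-8 (-2.90) were likewise beyond 1 unit in all 8, a pair of comparisons added after the values were seen. BTG2 also had the widest range of the 9 over the 4 low-density libraries, 10.1-fold between RM and IL-8, followed by BTG1 at 3.22-fold, CCNG1 at 3.00-fold, PPM1D at 2.81-fold and MDM2 at 2.62-fold. The range was 1.29-fold for CCND1 and 1.51-fold for CDKN1A. Beside these, the median range over the 9301 genes with a mean of at least 10 reads was 1.4 log2 units, and BTG2 at 2.90 and BTG1 at 1.54 exceeded it, as did CCNG1 at 1.44.

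**Figure D2:**
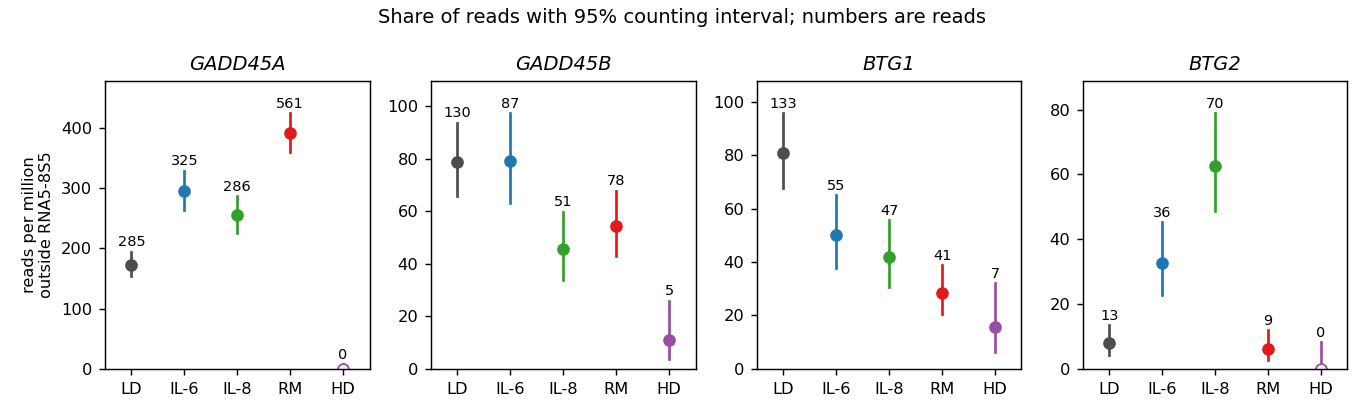
Read share, per 1000000 reads outside RNA5-8S5 (linear axes), for GADD45A, GADD45B, BTG1 and BTG2 in the 5 libraries, with 95% counting intervals as bars and the number of reads above each point. GADD45A is highest in RM with 561 reads, BTG1 is highest in LD with 133, and BTG2 is high with IL-6 and IL-8 with 36 and 70 reads but not in RM with 9.

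MDM2, the main inhibitor of p53, gave different answers by TPM and by reads. It had 63 reads in LD, 60 with IL-6, 34 with IL-8, 49 in RM and 47 in HD, or 11.4, 9.80, 4.34, 4.83 and 30.4 TPM. By TPM it was lower than LD by 1.21 log2 units with IL-8 and by 1.09 in RM. By read share the ratios to LD were 0.792 with IL-8 (interval 0.506 to 1.22) and 0.892 in RM (0.601 to 1.32), and a difference was not detectable at this depth. The TPM given per CPM (reads per 1000000 reads of the library) was 1.29 in LD and 0.702 and 0.675 with IL-8 and RM, whereas for CDKN1A it stayed between 2.40 and 2.55 and for BTG1 between 1.04 and 1.11 over the 4 low-density libraries. TPM depends on which transcripts of a gene the reads were assigned to, and the part of that assignment in the MDM2 values was not tested. With median-ratio size factors the differences of MDM2 were 0.01 with IL-8 and 0.39 in RM.

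PPM1D, the phosphatase that counteracts p53 activation, had 19, 26, 22, 13 and 35 reads in the order given above (LD first, HD last), or 2.81, 5.54, 4.28, 1.97 and 29.9 TPM. Its read share with IL-6 was 2.05-fold that of LD (interval 1.09 to 3.91), and the ratios with IL-8 (1.70) and RM (0.785) had intervals that included 1. CCNG1 had 30, 39, 22, 18 and 36 reads in the same order, or 9.88, 17.6, 9.30, 5.88 and 54.7 TPM. With IL-6 its read share was 1.94-fold that of LD (1.18 to 3.24), and in RM it was 0.354 times that of IL-6 (0.191 to 0.634). By TPM both genes were highest with IL-6 and lowest in RM among the low-density libraries, although counts of 13 to 39 reads leave wide intervals.

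CDKN1A, the p21 gene and the classical p53 target for arrest, differed little at low density. It had 1180 reads in LD, 757 with IL-6, 964 with IL-8, 839 in RM and 21 in HD, or 400.0, 378.5, 443.0, 294.0 and 42.9 TPM. Its read share was 0.959 times that of LD with IL-6 (interval 0.874 to 1.05), 1.2 times with IL-8 (1.10 to 1.31) and 0.816 times in RM (0.746 to 0.892). These departures were small, none reached 1 log2 unit, and the RM difference of -0.44 changed sign with median-ratio size factors and with TMM. CCND1 had 16703, 9682, 11700, 17613 and 573 reads, and its log2 differences from LD were -0.25 with IL-6, -0.09 with IL-8 and 0.12 in RM. The read share in RM was 1.21-fold that of LD (1.18 to 1.24), the highest of the 5 libraries.

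Few of the 9 genes differed from LD by at least 1 log2 unit under any cytokine, and the shares were read against those of the 21163 genes compared, all 9 members being among these. With IL-6, 1 member was higher (BTG2) and 0 were lower, where 9.84% of all genes were higher and 7.47% lower. With IL-8, 1 member was higher (BTG2) and 2 were lower (MDM2 and BTG1), beside 7.99% and 16.4% of all genes. In RM, 1 member was higher (GADD45A) and 2 were lower (MDM2 and BTG1), beside 6.44% and 20.4% of all genes. Among the 9301 genes with a mean of at least 10 reads, to which all 9 members belonged, the shares higher and lower were 9.68% and 8.33% with IL-6, 10.1% and 22.7% with IL-8, and 9.11% and 30.1% in RM. The counts of members are thus near the background in each cytokine comparison. The split of all genes depended on the scaling, since with median-ratio size factors 8.91% were higher and 6.42% lower with IL-8, and 10.4% higher and 7.58% lower in RM. The median difference of the 9 genes was 0.11 with IL-6, -0.08 with IL-8 and -0.44 in RM, where the median of all genes was 0. Over the 9301 genes with a mean of at least 10 reads the medians were 0.01, -0.33 and -0.49 in the same order, so that the members' value in RM was close to that of genes of like depth. Between RM and IL-6, 4 members were lower in RM (GADD45B, BTG2, PPM1D and CCNG1) and 0 higher, against 22.7% and 6.34% of all genes, and GADD45B changed sign to 0.11 with median-ratio size factors. Of these 4, BTG2 was beyond 1 unit under 8 of 8 settings of scaling and pseudocount, CCNG1 under 6, PPM1D under 5 and GADD45B under 3. With median-ratio size factors 1 member was lower in RM than with IL-6 and 2 were higher, and with TMM 1 was lower and 1 higher. Between RM and IL-8, 1 member (BTG2) was lower and 0 were higher, against 14.9% and 9.87%.

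**Figure D3:**
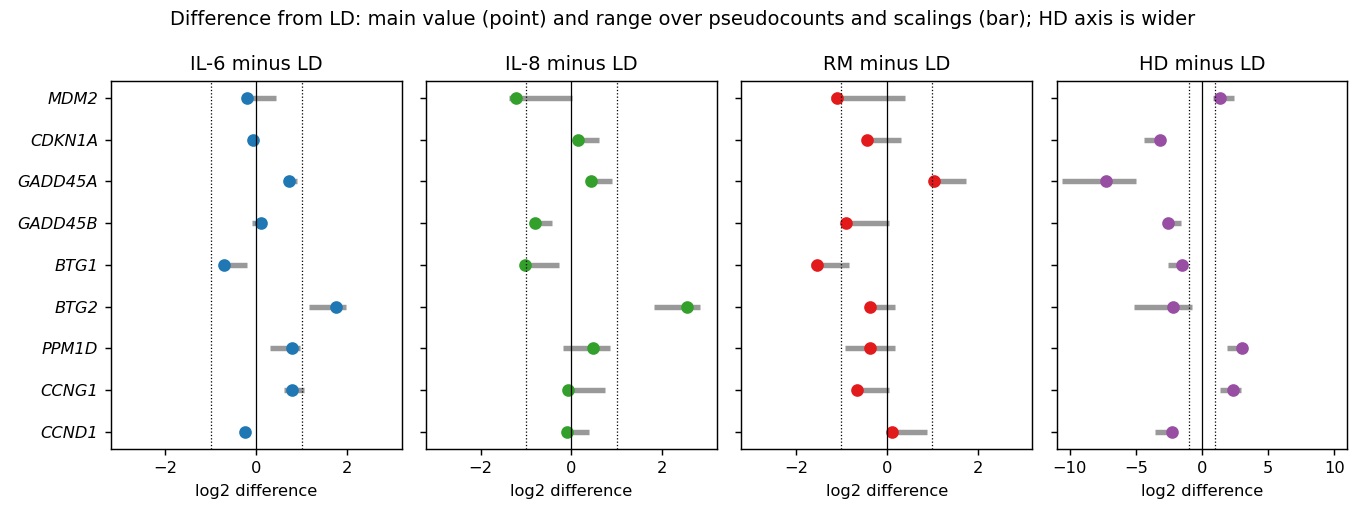
Log2(TPM + 1) difference of each of the 9 genes from LD with IL-6, IL-8, RM and HD (horizontal axes in log2 units, wider for HD), with the reported value as a point, the range over pseudocounts and scalings as a grey bar and dotted lines at 1 unit either way. BTG2 lies beyond 1 unit under every setting with IL-6 and IL-8 and GADD45A in RM, while the bars of MDM2 reach across 0 with IL-8 and RM.

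At high density the log2(TPM + 1) values of all 9 genes were at least 1 unit away from LD, in both directions, as were those of most genes. MDM2, PPM1D and CCNG1 were higher and the other 6 were lower, where 61.9% of all genes were higher and 17.9% lower and the median difference of all genes was 1.87. Among genes with a mean of at least 10 reads, 35.2% were higher and 34.5% lower, with a median difference of -0.08. The median of the 9 genes was -2.16, or -1.54 with the genes at 0 reads set at their bound. The 3 higher members had low levels in LD. PPM1D was 10.6-fold higher in HD by TPM and 6.74-fold by read share (interval 3.75 to 12.5), CCNG1 5.54-fold by TPM and 4.39-fold by read share (2.63 to 7.38), and MDM2 2.67-fold and 2.73-fold (1.83 to 4.05). Set against the median of all genes, PPM1D lay 1.15 log2 units above it and CCNG1 0.49 above it, whereas the value for MDM2 relative to it was -0.52. Over the scalings and drawn-down reads, all at a pseudocount of 1, this MDM2 value ranged from -0.73 to 0.73. With a pseudocount of 0.1 the median of all genes was 2.94. That is above the highest difference over the 8 settings for MDM2 (2.39) and for CCNG1 (2.93). Set against the median of the genes with a mean of at least 10 reads, all 3 lay above it, by 3.10 for PPM1D, 2.44 for CCNG1 and 1.42 for MDM2, so the side on which MDM2 falls depends on the genes it is set against.

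The abundant members were all lower in HD. CDKN1A was 9.33-fold lower by TPM and 15.4-fold by read share (interval 10.0 to 24.9), CCND1 4.95-fold and 7.97-fold (7.33 to 8.67), GADD45B 6.14-fold and 7.10-fold (2.97 to 22.2), and BTG1 3.21-fold and 5.19-fold (2.45 to 13.2). GADD45A, with 285 reads in LD, had 0 of 449661 reads in HD. Its read share was 26.0-fold lower with HD set at the floor of 3 reads, and at least 21.0-fold lower by the counting interval. BTG2 also had 0 reads there, but with 13 reads in LD its ratio had an interval up to 1.2, so that a difference was not detectable at this depth. Across all genes, those at or above 50 TPM in LD were lower in HD in 74.7% of 1989 cases and higher in 2.97%, and those at 1 to 50 TPM were lower in 24.0% of 9578 cases and higher in 41.6%, a division chosen after the values were seen. CCND1, CDKN1A, GADD45A and GADD45B belonged to the first class and went with its majority, and of the 5 members in the second class 3 were higher and 2 lower. Among the 1636 genes with at least 200 reads in LD, 7 (0.428%) had 0 reads in HD, as did 399 of 9236 with at least 10 (4.32%). Both classes also hold genes far more abundant than GADD45A. The shares were taken after its 0 was seen, so they are a description only. RM and HD lay on opposite sides of LD for GADD45A and CCND1 under each of the 8 settings. By TPM they did so for MDM2, PPM1D and CCNG1 too. The RM to LD ratios of their read shares, however, had intervals that included 1 (0.601 to 1.32, 0.356 to 1.68 and 0.361 to 1.28). Their RM differences also changed sign with median-ratio size factors, as did those of MDM2 and PPM1D with TMM and that of CCNG1 with drawn-down reads. For MDM2, PPM1D and CCNG1 the side of LD on which RM lay is therefore not established.

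**Figure D4:**
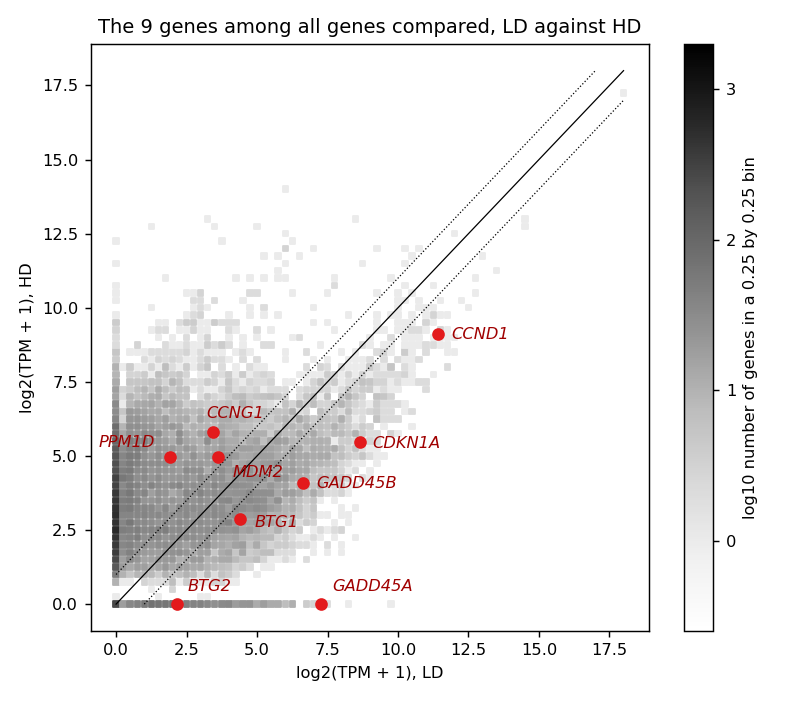
Log2(TPM + 1) in LD (horizontal) against HD (vertical) for all 21163 genes compared, in grey by the log10 number of genes per bin, with the 9 genes as red points, equality as a solid line and 1 unit either way as dotted lines. MDM2, PPM1D and CCNG1 lie above the upper dotted line with many other genes of low LD level, and GADD45A lies on the axis at 0 TPM in HD.

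The wider p53 and arrest network was read through 5 lists of 86 further genes, 82 of which reached 1 TPM in any library. Of these 82, 11 were higher and 8 lower with IL-6 by at least 1 log2 unit, 5 higher and 21 lower with IL-8, 3 higher and 25 lower in RM, and 29 higher and 28 lower in HD. As shares these are 13.4% and 9.76% with IL-6, 6.1% and 25.6% with IL-8, 3.66% and 30.5% in RM, and 35.4% and 34.1% in HD. They are read against the shares of all genes and of genes with a mean of at least 10 reads given above, and the share lower in RM is close to the 30.1% of the latter. With median-ratio size factors 8 of the list genes were higher and 7 lower with IL-8, and 11 higher and 14 lower in RM. Of the 13 genes of the core p53 list that passed, 5 were higher and 0 lower with IL-6 (MDM4, ATM, CHEK2, TP63 and TP73), and 0 higher and 2 lower in RM (CHEK1 and RFWD2). The 5 higher are 38.5% of the list beside 9.84% of all genes, and the 2 lower are 15.4% beside 20.4%. Of the 5, the interval of the read-share ratio excluded 1 for MDM4 (2.36-fold, 1.41 to 4.01) and CHEK2 (6.09-fold, 3.28 to 12.2) and included it for ATM (1.24-fold, 0.763 to 2.0), TP63 (0 and 4 reads) and TP73 (0 and 3 reads). Under CPM, median-ratio size factors or TMM the number higher with IL-6 was 1. The checkpoint kinase gene CHEK2 had 13 reads in LD and 53 with IL-6, a log2 difference of 2.32. Its counterpart CHEK1 had 50 reads in LD and 3 in RM, with a ratio of read shares of 0.0688 (0.0137 to 0.213). In HD 6 of the 13 were higher and 1 lower (46.2% and 7.69%), beside 61.9% and 17.9% of all genes. Of the 10 with a mean of at least 10 reads, 4 were higher and 1 lower in HD (40.0% and 10.0%). Among all genes with such a mean these shares were 35.2% and 34.5%. MDM4, the relative of MDM2 that holds p53 inactive, had 180 reads in HD against 26 in LD.

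Of 34 other p53 targets, 2 were higher and 12 lower in RM, with a median difference of -0.72. These 12 are 35.3% of the list, beside 30.1% of genes with a mean of at least 10 reads, whose median was -0.49. Of the 27 targets with such a mean, 10 were lower in RM (37.0%), with a median of -0.73. With median-ratio size factors 4 of the 34 were higher and 5 lower, with a median of -0.06. The 2 higher ones were the sestrins SESN1 and SESN2, stress proteins that restrain mTORC1. SESN2 had 72 reads in LD, 140 with IL-6, 83 with IL-8, 325 in RM and 6 in HD, an order by TPM that matched that of GADD45A, and its read share in RM was 5.18-fold that of LD (interval 4.0 to 6.78). SESN1 had 5, 9, 16, 57 and 3 reads. With IL-6 2 of the 34 were higher and 1 lower, with IL-8 2 and 5, and in HD 10 and 16. As shares these are 5.88% and 2.94%, 5.88% and 14.7%, and 29.4% and 47.1%. All genes gave 9.84% and 7.47%, 7.99% and 16.4%, and 61.9% and 17.9% in the same order. In HD, genes with a mean of at least 10 reads gave 35.2% and 34.5%, with a median of -0.08. The 27 targets with such a mean gave 18.5% and 55.6% in HD, with a median of -1.33. The proapoptotic genes BAX and BBC3, with 560 and 404 reads in LD, had 6 and 3 in HD. AEN, a nuclease gene, had 181 in LD and 0 in HD. The AEN read share was 16.5-fold lower with HD set at the floor of 3 reads, and at least 13.3-fold lower by the counting interval.

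Of 9 relatives of the 9 genes, 1 was higher and 3 lower with IL-8 and 0 higher and 3 lower in RM. The lower ones are 33.3% of the list in each. Among genes with a mean of at least 10 reads, 22.7% were lower with IL-8 and 30.1% in RM. Only 4 of the 9 relatives had such a mean, so the counts are not read as a result about them. TOB2, a member of the BTG family, had 53.4 TPM in LD, 52.9 with IL-6, 233.7 with IL-8, 22.2 in RM and 48.1 in HD. Like BTG2, it was thus above LD with IL-8 and not in RM, but unlike BTG2 it was not above LD with IL-6. In the same order it had 189, 106, 298, 69 and 15 reads. Its log2 difference with IL-8 was 2.11, and the lowest over the settings was 1.00. In HD the difference was -0.15, with a range of -2.18 to -0.14 over the settings, so whether TOB2 was level with LD there depends on the setting. The phosphatase gene PPM1A had 73 reads in LD and 19, 11 and 3 with IL-6, IL-8 and RM, lower by more than 1 log2 unit in each, and its paralogue PPM1D was beyond 1 unit in none of the 3. Of 8 binding partners, 0 were beyond 1 unit with IL-6, and 1 was lower with IL-8 and 1 in RM. That is 12.5% of the list in each, beside 16.4% and 20.4% of all genes. PCNA, the replication clamp that p21 and the GADD45 proteins bind, had 50, 28, 27, 41 and 0 reads. With HD set at the floor of 3 reads, its read share there was 4.55-fold lower than in LD.

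Of 18 genes of the G1 machinery, 9 were lower and 1 higher with IL-8, and 7 lower and 1 higher in RM, with medians of -0.98 and -0.54. The lower ones are 50.0% of the list with IL-8 and 38.9% in RM. Among genes with a mean of at least 10 reads 22.7% and 30.1% were lower, and the medians were -0.33 and -0.49. Only 12 of the list genes had such a mean. Of these, 6 were lower with IL-8 (50.0%) and 4 in RM (33.3%), with medians of -0.98 and -0.25. At like depth the list median in RM was thus not below that of all genes. With median-ratio size factors the lower list genes numbered 4 and 5 of 17. With IL-6 the counts were 3 higher and 5 lower (16.7% and 27.8%), beside 9.84% and 7.47% of all genes. In HD they were 6 and 7 (33.3% and 38.9%), beside 61.9% and 17.9%. CDK4, the kinase partner of cyclin D1, had 434 reads in LD, 402 with IL-6, 194 with IL-8, 192 in RM and 71 in HD. Its read share in RM was 0.508 times that of LD (interval 0.426 to 0.603), in the library with the highest CCND1 level. CDK2, which p21 inhibits, had 69, 14, 26, 17 and 0 reads. RB1, the retinoblastoma gene, was the member of this list that was higher with IL-8, with 110 reads there, 15 in LD and 8 or fewer in the other 3 libraries. The inhibitor genes CDKN2A, CDKN2B and CDKN1C had 0 reads in all 5 libraries.

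**Figure D5:**
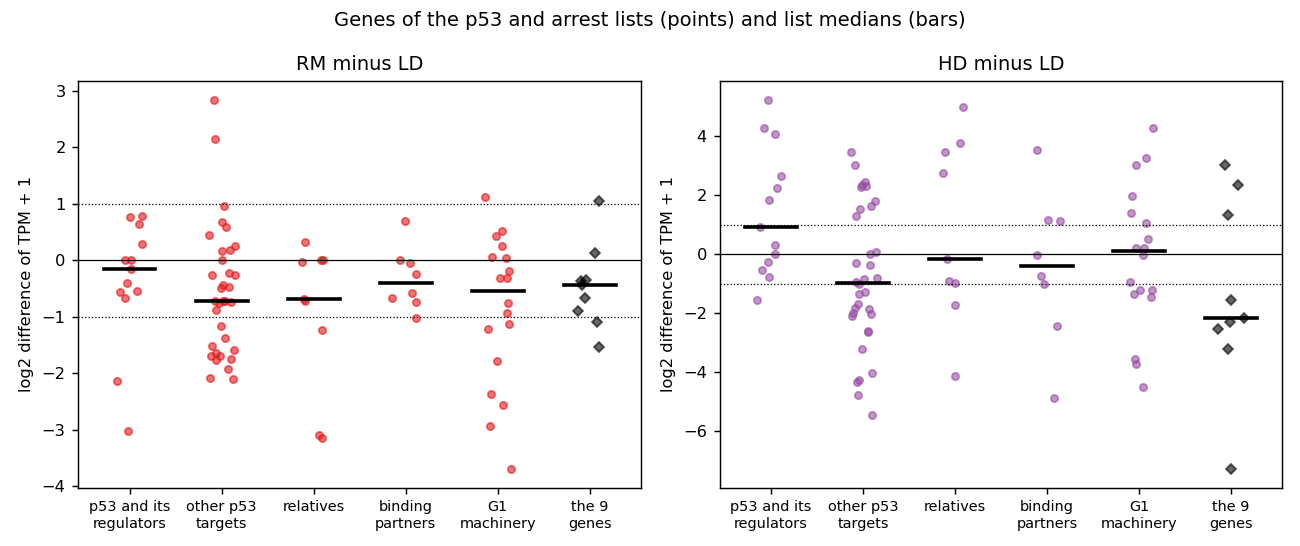
Log2(TPM + 1) difference of each gene of the 5 lists (points) and of the 9 genes (diamonds) between RM and LD on the left and between HD and LD on the right, with list medians as black bars and dotted lines at 1 unit either way (the vertical axes differ). In RM 12 of the 34 other p53 targets lie below the lower dotted line and 2 above the upper one, and the 9 genes have medians of -0.44 in RM and -2.16 in HD.

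The genes whose profile over the 5 libraries came closest to each member were found by the root mean square distance between centred log2(TPM + 1) profiles, among 3842 genes with a mean of at least 50 reads. The distance is a description over 5 points that all share the HD contrast. CCND1 was closest to CD63 (0.060), ACTG1 (0.075) and MRPL14 (0.088), and the 3 genes closest to CDKN1A included RANGAP1 and EIF3H (both 0.105). GADD45B was closest to WDR75 (0.081), LCP1 and ADIPOR2, BTG1 to RBX1 (0.087), ATP5A1 and NSUN2, and MDM2 to FAM189B (0.108), LRRC58 and PRDM2. GADD45A had no gene as near, the closest being SRSF9 (0.454), SSX1 and TMED1 (both 0.502), each with 0 reads in HD. SSX1 had 121 reads in LD, 120 with IL-6, 101 with IL-8 and 330 in RM. Between members, CDKN1A and CCND1 were 0.441 apart, GADD45B and CCND1 0.494, BTG1 and GADD45B 0.637, and the nearest member to GADD45A, CDKN1A, was at 1.96. The nearest member was sought among few genes and the nearest gene among 3842. The 2 kinds of distance therefore cannot show whether the members go together. BTG2, PPM1D and CCNG1 had a mean under 50 reads and were not compared.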

How the data were processed

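The 5 libraries were made from oligo-dT selected RNA, amplified as whole cDNA with phi29 polymerase, tagmented and read as single ends. Per the labels, Bowtie2 served the authors for alignment and RSEM for quantification. The submitters' processing notes list CASAVA 1.4, Bowtie, Bowtie2 2.3.1, RSEM 1.2.25 and FastQC and the builds GRCh37 and hg19, and the annotation and settings are not given in the sources used here. The authors deposited a whole-number read count per gene, without normalization, from a counter whose estimates need not be whole. They also deposited TPM per gene, corrected for transcript length and library total. Amplification adds duplicates that counting intervals do not cover, and RNA5-8S5 lowers the depth left for other genes.

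The 9 genes, the pathway lists and the markers were chosen with earlier results of these data known. TPM was rescaled to 1000000 per library and compared as log2(TPM + 1) over the 21163 genes that reached 1 TPM in any library, and genes 1 unit or more apart were counted. With 1 library per group no test was made, all 9 genes passed the filter and no sample was left out. Intervals of read shares are Clopper-Pearson and those of ratios are conditional exact, at 95%. Named beside the 9 genes are PCNA and CDK4 and, per list and comparison, up to 3 genes with the largest difference among those with at least 50 reads in either library, together with the 3 nearest profiles per member. Further list genes named beside a count (among them TP63, TP73, RFWD2, CDKN2A, CDKN2B and CDKN1C) were named after their values were seen. The comparisons of RM with each single cytokine, the list counts under each setting, the medians of genes with a mean of at least 10 reads, and the background shares by LD level and at 0 reads in HD, were also added after the values were seen. Some genes that this rule names are not reported here. Motifs were searched on both strands of RefSeq windows on GRCh38.p14, a build other than that of the counts. A library of collagen without cells is not analysed here.

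Alternatives were pseudocounts of 0.1 and 5, CPM from the counts, TPM without RNA5-8S5, median-ratio size factors, TMM factors, other filters and thresholds, and reads drawn down to equal depth. The comparison code was tested on simulated data. The software was R 4.3.3 with edgeR 4.0.16 (TMM factors only) and Python 3.11.15 with scipy 1.17.1, numpy 2.4.6, pandas 2.3.3 and matplotlib 3.10.9.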

Additional observations from a re-analysis of the deposited data

How the results depend on the processing

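Over 11 alternative settings, the number of members at least 1 log2 unit lower in IL-8 (2 as reported) was 0 with a pseudocount of 5, median-ratio size factors, TMM, a threshold of 2 log2 units or reads drawn down to 449661 per library, and 1 with CPM. The number lower in RM (2 as reported) was 1 with a pseudocount of 5, CPM or TMM, 0 with median-ratio size factors, 2 log2 units or drawn-down reads, and 4 at 1.5-fold. In IL-6 the number higher (1 as reported) was 0 at 2 log2 units, 4 at 1.5-fold and 2 with drawn-down reads, and the number lower (0 as reported) was 1 at 1.5-fold. The number higher in RM (1 as reported) was 0 at 2 log2 units. The numbers in HD kept within 1.5 times of those reported. Of 378 alternative values for single members, 303 moved by less than the distance from the middle to the end of the log2 counting interval, and 71 moved by more. For differences of at least 1 log2 unit 4 changed sign: MDM2 in IL-8 minus LD (0.008 with median-ratio size factors), MDM2 in RM minus LD (0.39 with median-ratio size factors and 0.24 with TMM) and GADD45B in RM minus IL-6 (0.11 with median-ratio size factors, a comparison added after seeing the data). A further 31, all for differences under 1 log2 unit, had the opposite sign. The cause was not tested. The number lower in RM than in IL-6 (4 as reported) was 2 with a pseudocount of 5 and 1 with median-ratio size factors, TMM or 2 log2 units, and the number higher (0 as reported) was 2 with median-ratio size factors and 1 with TMM. The number lower in RM than in IL-8 (1 as reported) was 2 with a pseudocount of 0.1 and 3 at 1.5-fold, where the number higher (0 as reported) was 1. Of the counts over the pathway lists, 36 moved by over 1.5 times and 52 did not: with TMM, 7 were higher and 12 lower in IL-8, 10 and 17 in RM and 19 and 45 in HD. The median HD minus LD difference of all genes lay between 0.68 (TMM) and 2.94 (pseudocount 0.1).

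Depth limits the low members: BTG2, PPM1D and CCNG1 rest on 9 to 70 reads at low density, and the floor in HD is 6.67 reads per 1000000 outside RNA5-8S5. With 1 library per group, no value here separates a condition from its library. No paired analysis was possible because each group had only 1 library.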
